A study of Mus musculus with 6 samples.

Results

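The Rab family of small GTPases was followed in 6 lines of mpkCCD cells, which derive from mouse kidney (the cortical part of the collecting duct) and grow as a principal cell-like epithelium. Members were taken by their symbol, Rab followed by a number and an optional letter and digit. Each gene was read through its single-gene probe set of highest mean signal over the 6 arrays. The rule gave 59 Rab genes of the 18193 genes named by a single-gene probe set, and together they held 132 probe sets.

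Each line was measured on 1 Affymetrix array, as MAS5 signal on a linear scale. For 5 days all lines, clone 2 included, received dDAVP, an analog of vasopressin, at 0.1 nM. Per the labels, the water channel aquaporin 2 (AQP2, gene Aqp2) is not expressed in clone 2. It is expressed in the original cells and in clones 3, 9, 10 and 11. Clone 2 is 1 clone on 1 array, so lack of AQP2 cannot be told apart from any other trait of that clone, of its culture or of its array. The p-values of the clone 2 comparison rest on the spread between the 5 expressing lines, and clone 2 was assumed to vary like them. Those of the slopes on Aqp2 rest on the scatter of the lines about the fitted slope. In both fits the variance of each probe set was also drawn toward that of probe sets of similar signal, so the p-values do not rest on the lines alone. In bulk RNA, fewer cells of a type and less RNA per cell cannot be told apart.

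Rab proteins act as membrane-bound switches: a guanine nucleotide exchange factor loads them with GTP, effectors such as motors and tethers bind the GTP form, and a GTPase-activating protein turns them off. A prenyl anchor holds them on the membrane, and GDP dissociation inhibitor lifts them off it. Different members mark different organelles, from the Golgi to early, recycling and late endosomes. In principal cells of the collecting duct, vasopressin sends AQP2 from storage vesicles to the apical membrane, and AQP2 is taken back into early endosomes and either recycled or degraded. Rab5, Rab7 and Rab11 proteins are known to mark stages of that route.

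Aqp2 itself gave a signal of 159 in clone 2. From low to high, it gave 1066 in clone 10 and 1698 in clone 3, then 3822 for the original cells, then 4683 in clone 9 and 6578 in clone 11. Its mean over the expressing lines was 3570 ± 2243 (SD, n = 5). The test used throughout was limma with Benjamini-Hochberg adjustment over all probe sets. In that fit clone 2 was lower for Aqp2 (log2 difference -4.05, SE 0.79). This difference restates the labels, which group the lines by AQP2 expression. By these signals, the order of the lines by Aqp2 used below is clone 2, clone 10, clone 3, original cells, clone 9 and clone 11. Correlations between arrays over all probe sets were 0.953 to 0.981 among the expressing lines and 0.930 to 0.953 between clone 2 and these. Principal cell identity genes were past the signal filter for 11 of 14, with Aqp4, Elf5 and Kcnj1 below it. The summed signal of these 14 was 16304 in clone 2 and 32931 to 38714 in the expressing lines, with clone 2 below every other line for 8 of them. Both the sum and the 8 include Aqp2, by which the lines are grouped. Aqp3 went the other way, at 192 in clone 2 and 96.4 to 150 in the others. Of the rest past the filter, Avpr2 and Scnn1b were within the range of the other lines in clone 2. Of 8 proximal tubule genes, the endocytic receptor gene Lrp2 alone was past the filter, with a signal of 116 in clone 2 and 809 to 1067 in the other lines, and the summed signal of the 8 was 297.5 against 1003 to 1351. Intercalated cell genes were past it for 3 of 9 (Atp6v1b1, Aqp6 and Rhcg), with a summed signal of 1446 in clone 2 and 1001 to 2525 in the others, and Foxi1 and Slc4a1 were below it. Aqp6 gave 39.0 in clone 2 and 222 to 328 in the others, Atp6v1b1 gave 949 against 413 to 687, and Rhcg ran from 8.42 in clone 9 to 1526 in clone 11. Leukocyte and endothelial genes were past it for 3 of 8, with a summed signal of 4526 in clone 2 and 3694 to 5562 in the others, and Ptprc and Pecam1 were below it. The 3 were Cd14 and Csf1r, present in every line at 1529 to 2564 and 1641 to 2564, and Cd68, at 619 in clone 2 and 122 to 323 in the others. All 7 epithelial genes were past it, with a summed signal of 92327 in clone 2 and 100619 to 115019 in the others; clone 2 was below every other line for 5 of them and above for Krt19 and Cldn7. The part these marker differences have in the Rab values was not tested.

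Of the 59 Rab genes, 45 passed the filter, a mean signal above 85.5, the median of all probe sets. The 14 that did not were Rab3b, Rab3c, Rab6b, Rab7b, Rab9b, Rab26, Rab33a, Rab37, Rab38, Rab39, Rab39b, Rab40b, Rab42 and Rab44. The highest single signal among these 14 was 129, for Rab38 in clone 11. Several of these genes are known mainly from neurons, secretory cells, pigment cells or blood cells. A gene under the filter may still be expressed, since these arrays measure low signals poorly.

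No Rab gene passed the test in clone 2. By an adjusted p under 0.05, 0 of 45 Rab genes were called, beside 325 of 10342 genes tested (3.14%). At an unadjusted p under 0.05 there were 12 Rab genes, 6 higher and 6 lower (26.7% of the 45), beside 22.3% of all genes. The log2 difference was above 0 for 20 Rab genes and below 0 for 25. Its median was -0.06 and the median of its size 0.20, beside 0.01 and 0.26 over all genes tested. Clone 2 lay below every expressing line for 15 Rab genes (33.3%, beside 26.9% of all genes) and above every one for 11 (24.4%, beside 29.0%). The 26.7%, 33.3% and 24.4% were near these backgrounds, and the family as a whole was not set apart from other genes by these counts.

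**Figure D1:**
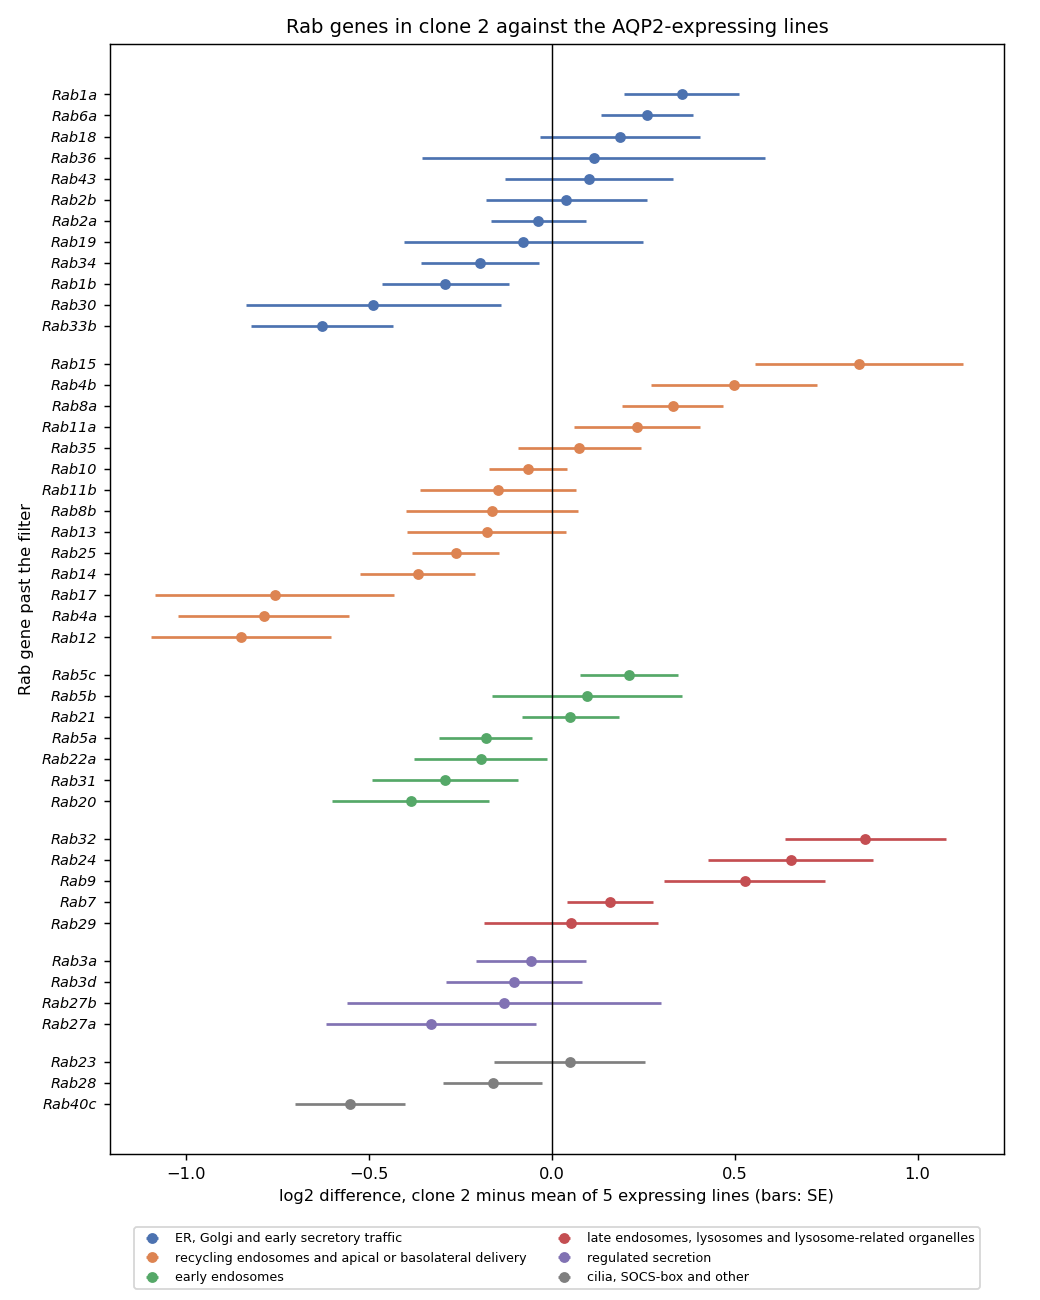
Log2 difference between clone 2 and the mean of the 5 expressing lines (horizontal axis) for the 45 Rab genes past the filter, by role group (colour), with bars of 1 SE. The late endosome and lysosome genes lie above 0 and the regulated secretion genes below it. Of these, the signs of Rab9, Rab29, Rab3a, Rab3d and Rab27b change under other settings. The recycling group runs from -0.85 (Rab12) to 0.84 (Rab15), and no gene passed the adjusted test.

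The recycling and surface delivery group, 14 genes that were all past the filter, held the 3 lowest differences of the family and, in Rab15, the next to highest. Its median log2 difference was -0.15, with 5 genes above 0 and 9 below. Rab12, which acts at recycling endosomes and in the degradation of the transferrin receptor, had a signal of 478 in clone 2, 693 in clone 3, 1056 in clone 9, 785 in clone 10, 1068 in clone 11 and 846 in the original cells. Clone 2 was below every other line, and the log2 difference was -0.85 (SE 0.25, adjusted p = 0.105, limma). Another, dimmer probe set of Rab12 gave 11.4 in clone 2 and 116 ± 29.0 (SD, n = 5) in the expressing lines, and was called (adjusted p = 0.0334, limma). Its signal in clone 2 was under the offset of 18.85 and it passed the filter through the expressing lines alone, so the size of its difference is not read here.

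Rab4a and Rab4b, close paralogs of the fast recycling route from early endosomes, differed in direction. Rab4a gave 270 in clone 2, 419 in clone 3, 416 in clone 9, 529 in clone 10, 598 in clone 11 and 463 in the original cells (log2 difference -0.79, SE 0.23, adjusted p = 0.110, limma). The other Rab4a probe set gave 134 in clone 2 and 263 ± 25.9 (SD, n = 5) in the others. Rab4b gave 721 in clone 2, 578 in clone 3, 419 in clone 9, 607 in clone 10, 468 in clone 11 and 476 in the original cells (log2 difference 0.50, SE 0.23, adjusted p = 0.261). Clone 2 was thus the lowest of the 6 lines for Rab4a and the highest for Rab4b. The difference between these 2 differences was not tested.

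Rab15, a regulator of early and recycling endosomes, gave 2366 in clone 2, 1756 in clone 3, 998 in clone 9, 1513 in clone 10, 1050 in clone 11 and 1401 in the original cells. Clone 2 was above every other line (log2 difference 0.84, SE 0.29, adjusted p = 0.151, limma). Rab17, an epithelial Rab of apical recycling and transcytosis, gave 261 in clone 2 and 289 in clone 9, against 426 to 585 in the other 4 lines (log2 difference -0.76, SE 0.33, adjusted p = 0.239). Clone 9, which had the next to highest Aqp2 signal, was thus close to clone 2 for Rab17.

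Rab14, which works between the trans-Golgi network and endosomes, gave 6223 in clone 2 and 7258 to 9304 in the expressing lines (log2 difference -0.37, SE 0.16, adjusted p = 0.237, limma). All 5 other tested Rab14 probe sets were also lower in clone 2, and one of them gave 179 against 388 ± 47.8 (SD, n = 5), with a log2 difference of -1.03 (adjusted p = 0.0502). The Rab11 genes, whose products define the recycling endosome, showed small differences. Rab11a gave 4472 in clone 2 and 3823 ± 464 (SD, n = 5) in the others, and Rab11b gave 2598 and 2910 ± 489. Rab25, the epithelial member of the Rab11 group, gave 3368 in clone 2 and 4045 ± 124 in the others (log2 difference -0.26, SE 0.12, adjusted p = 0.260), with clone 2 below every line. Rab8a, which delivers vesicles to the surface and the cilium, gave 2752 in clone 2 and 2186 ± 117 (log2 difference 0.33, SE 0.14, adjusted p = 0.225), while the median over all its probe sets was just below 0. Rab10 and Rab13, which serve delivery to the basolateral membrane and to tight junctions, gave 7063 against 7390 ± 225 and 786 against 900 ± 143. Rab8b and Rab35 completed the group, with log2 differences of -0.16 and 0.08.

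The late endosome and lysosome group had 5 tested genes of 8. All 5 had log2 differences above 0 over the 6 lines, with a median of 0.53. Clone 2 was above every other line for 4 of them. Without clone 9 Rab29 stood at -0.04, and after chromosome centring Rab9 stood at -0.03. Rab7b, Rab9b and Rab38, under the filter, gave lower signals in clone 2 than the expressing mean. These were 14.8 against 57.9, 4.81 against 14.2 and 66.4 against 69.9. Rab32, which serves lysosome-related organelles, gave 693 in clone 2, 404 in clone 3, 384 in clone 9, 396 in clone 10, 406 in clone 11 and 293 in the original cells. The expressing mean was 376 ± 47.5 (SD, n = 5) and the log2 difference 0.86 (SE 0.22, adjusted p = 0.0771, limma). Rab32 passed the test once each array was centred on the median level of the genes of each chromosome (log2 difference 1.08, adjusted p = 0.0358). Rab24, linked to autophagy, gave 2312 in clone 2 and 1081 to 1654 in the others (log2 difference 0.65, SE 0.22, adjusted p = 0.154). Rab9, which returns mannose 6-phosphate receptors from late endosomes to the Golgi, gave 2500 in clone 2, 2287 in clone 9 and 1502 to 1744 in the other 4 lines (log2 difference 0.53, SE 0.22, adjusted p = 0.225). Rab7, the Rab of late endosome to lysosome transport, gave 6452 against 5782 ± 271 (log2 difference 0.16, adjusted p = 0.484). Rab29 was within the range of the other lines (0.05). With 5 tested genes and no call, the shared sign is a description of these arrays.

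The early endosome group had 7 genes, all tested, with 3 log2 differences above 0 and 4 below and a median of -0.18. Rab5a, needed for the fusion of early endosomes, gave 4022 in clone 2 and 4567 ± 256 (SD, n = 5) in the others, and its paralog Rab5c gave 3293 and 2847 ± 155. Clone 2 was below every other line for Rab5a and above every one for Rab5c. Rab21, which carries integrins, gave 2479 against 2395 ± 103. The remaining genes Rab5b, Rab20, Rab22a and Rab31 had log2 differences from -0.39 (Rab20) to 0.10 (Rab5b).

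The regulated secretion group, Rab3 and Rab27 paralogs and relatives, had 4 tested genes of 8, all with log2 differences below 0 (median -0.12), although only Rab27a kept that sign under every alternative. Rab27a, which tethers secretory granules and exosome precursors at the membrane, gave 312 in clone 2, 311 in clone 3 and 312 in clone 10, but 504 in clone 9, 443 in clone 11 and 456 in the original cells. The 3 lines with the lowest Aqp2 signal thus had nearly the same low Rab27a signal, and the 3 with the highest Aqp2 had the higher ones. Rab27b gave 343 in clone 2, 337 in clone 3, 729 in clone 9, 329 in clone 10, 359 in clone 11 and 261 in the original cells. Its value in clone 9 set the sign: the log2 difference was -0.13 over all lines and 0.10 without clone 9. Rab3d gave 833 against 899 ± 102 (SD, n = 5). By its chosen probe set Rab3a was steady, with a coefficient of variation of 2.98% over the expressing lines. Its other, dimmer probe set was less steady, with 99.4 in clone 2 and 175 ± 29.5 (SD, n = 5) in the expressing lines.

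The ER and Golgi group had 12 tested genes of 16, 6 above 0 and 6 below, with a median of 0.00. Rab33b, a Golgi Rab that also binds the autophagy protein ATG16L1, gave 1160 in clone 2, 1623 in clone 3, 2050 in clone 9, 1531 in clone 10, 2070 in clone 11 and 1816 in the original cells. Clone 2 was below every other line (log2 difference -0.63, SE 0.19, adjusted p = 0.121, limma). Rab1a, which serves transport from the ER to the Golgi, gave 13417 in clone 2 and 9449 to 12522 in the others (log2 difference 0.36, SE 0.16, adjusted p = 0.248). Its paralog Rab1b gave 2279 against 2808 ± 338 (SD, n = 5), with a log2 difference of -0.29. Rab18, known from the ER and lipid droplets, gave 2726 against 2423 ± 461. The Golgi gene Rab30 gave 67.9 in clone 2 and 72.5 to 131 in the others. Rab19 and Rab36 had log2 differences of -0.08 and 0.11, small beside SEs of 0.33 and 0.47. Rab2a, Rab2b, Rab6a, Rab34 and Rab43 had log2 differences from -0.20 (Rab34) to 0.26 (Rab6a).

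The last group held Rab genes of cilia and of the SOCS-box type, with 3 of 6 tested. Rab40c, whose product carries a SOCS box and serves as a ubiquitin ligase adaptor, gave 951 in clone 2, 1416 in clone 3, 1506 in clone 9, 1335 in clone 10, 1447 in clone 11 and 1319 in the original cells. The expressing lines lay close together at 1405 ± 78.1 (SD, n = 5), all above clone 2 (log2 difference -0.55, SE 0.15, adjusted p = 0.0890, limma). Rab23, a negative regulator of Hedgehog signalling, and Rab28, found in cilia, had log2 differences of 0.05 and -0.16.

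**Figure D2:**
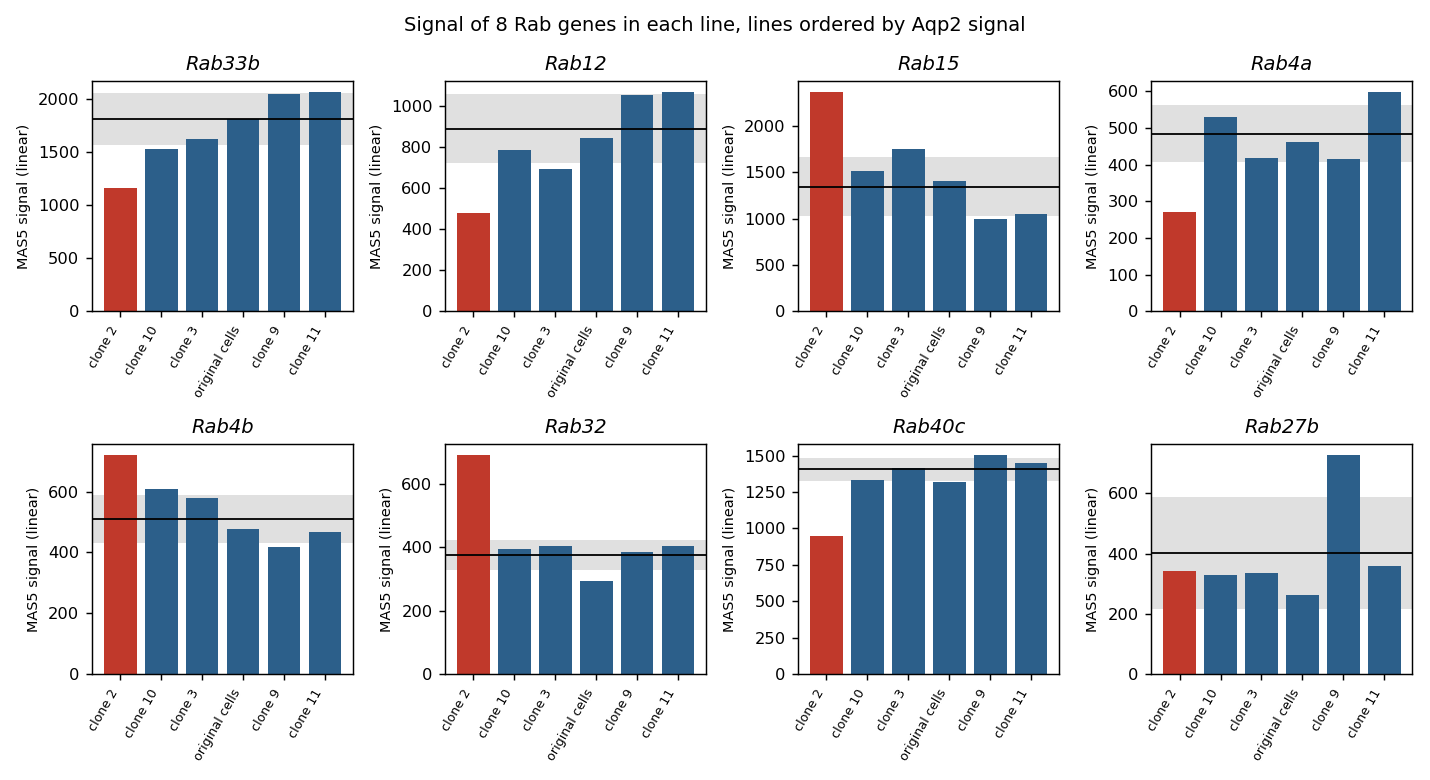
MAS5 signal on a linear scale (vertical axis) of 8 Rab genes in each line, ordered from lowest to highest Aqp2 signal, with clone 2 in red; the black line is the mean of the 5 expressing lines and the grey band 1 SD on either side. Rab33b climbs from 1160 to 2070 in the order of Aqp2, Rab4a is lowest and Rab4b highest in clone 2, and clone 9 stands alone for Rab27b at 729.

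Between chromosomes, the median log2 difference of all tested genes in clone 2 ran from -0.37 (chromosome 17) to 0.47 (X), and it was near 0 on chromosomes 8 and 9 (-0.01 and -0.02). On chromosome 17 was the lowest of any chromosome, and all 5 tested Rab genes there (Rab5a, Rab11b, Rab12, Rab31 and Rab40c) were below 0. After chromosome centring, in which each array is set to a common median level of the genes of a chromosome (not a subtraction of the median difference), Rab12 stood at -0.44, Rab40c at -0.14, Rab31 at 0.12, Rab5a at 0.23 and Rab11b at 0.26. On the X chromosome Rab9, at 0.53, lay close to the median difference and stood at -0.03 after centring. On chromosome 3 the median was -0.20, and after centring Rab33b stood at -0.44 in place of -0.63 and Rab13 at 0.01 in place of -0.18. On chromosome 10 the median was -0.24, the opposite sign to Rab32. The chromosome shift and a change of the single gene cannot be told apart for Rab5a, Rab9, Rab11b, Rab13, Rab31 and most of the difference of Rab40c. The same holds for part of the differences of Rab12 and Rab33b. It also holds for the small differences of Rab2b, Rab3a, Rab35 and Rab43, which changed sign after centring.

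Paralogs that share a number were compared by the sign of their difference in clone 2. Both members were past the filter for 10 pairs in 8 families, and 7 pairs had opposite signs, beside 50.5% of all 990 pairs of tested Rab genes: Rab1a and Rab1b, Rab2a and Rab2b, Rab4a and Rab4b, Rab5a with Rab5b and with Rab5c, Rab8a and Rab8b, and Rab11a and Rab11b. The pairs Rab3a and Rab3d, Rab5b and Rab5c, and Rab27a and Rab27b had the same sign. Rab4 and Rab1 had the widest gaps, from -0.79 to 0.50 and from -0.29 to 0.36 on the log2 scale. The 3 Rab5 pairs share members, no difference between paralogs was tested, and several members lie within 1 SE of 0. The pairs also depend on the chromosome shifts, since Rab2b, Rab3a, Rab5a and Rab11b changed sign after chromosome centring. Rab2a and Rab2b, Rab5a with Rab5b and with Rab5c, and Rab11a and Rab11b then shared a sign, while Rab3a and Rab3d became opposite. The 7 pairs are therefore not read as a pattern of paralogs. By the median over probe sets 7 pairs were again opposite, but not the same 7. Rab8a then had the sign of Rab8b, and Rab5b that of Rab5a. Rab3d had the opposite sign to Rab3a, and Rab5b to Rab5c. Rab2a and Rab2b both changed sign and so stayed opposite.

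**Figure D3:**
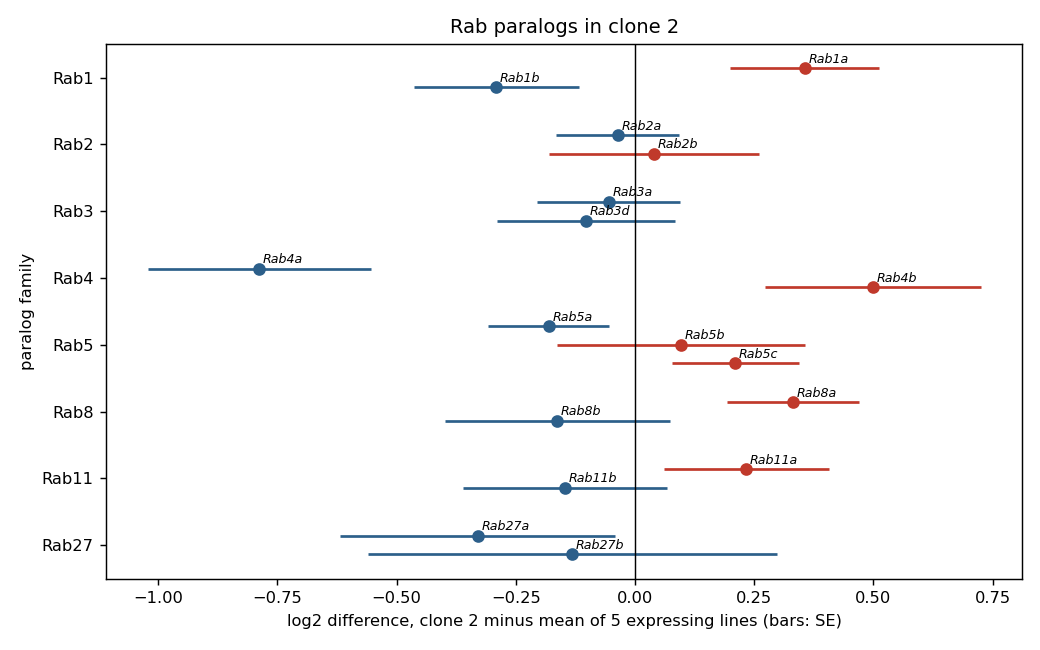
Log2 difference between clone 2 and the mean of the 5 expressing lines (horizontal axis) for Rab paralogs by family (vertical axis), red above 0 and blue below, with bars of 1 SE. Rab4a at -0.79 and Rab4b at 0.50 lie farthest apart; both Rab27 genes lie below 0, where Rab27b does not stay without clone 9.

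3 of the 45 Rab genes followed the Aqp2 signal over the 6 lines by the adjusted test. In this fit the log2 value of each gene was regressed on that of Aqp2, and the slope is the change of the gene per unit of Aqp2, both as log2(signal + 18.85). It uses the same 6 arrays as the clone 2 comparison, so the 2 are not independent. Rab12 and Rab33b rose with Aqp2 and Rab15 fell, that is 6.67% of the 45, beside 2.22% of all genes tested. At an unadjusted p under 0.05 there were 12 (26.7%), beside 22.1% of all genes. The slope was above 0 for 26 Rab genes and below 0 for 19, with a median of 0.02 and a median size of 0.05, beside 0.00 and 0.05 over all genes.

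The promoters of these 3 genes are shown because these were the members called with Aqp2, which is itself a gene induced through vasopressin and cyclic AMP. Each is the RefSeq sequence on GRCm38.p6 from 250 bases before to 50 bases after the annotated start, written 5′ to 3′ on the gene's strand. Capitals mark the motifs searched on both strands: the cyclic AMP response element TGACGTCA, its short form TGACG, the GC box GGGCGG, the box named CCAAT, and the E-box CACGTG. The short form is contained in the full element.
Rab33b: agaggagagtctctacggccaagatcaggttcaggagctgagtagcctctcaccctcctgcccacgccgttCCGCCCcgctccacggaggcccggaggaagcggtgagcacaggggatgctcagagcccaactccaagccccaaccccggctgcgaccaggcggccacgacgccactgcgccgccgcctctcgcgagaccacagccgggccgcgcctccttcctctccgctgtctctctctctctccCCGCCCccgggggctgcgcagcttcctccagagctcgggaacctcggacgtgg
Rab12: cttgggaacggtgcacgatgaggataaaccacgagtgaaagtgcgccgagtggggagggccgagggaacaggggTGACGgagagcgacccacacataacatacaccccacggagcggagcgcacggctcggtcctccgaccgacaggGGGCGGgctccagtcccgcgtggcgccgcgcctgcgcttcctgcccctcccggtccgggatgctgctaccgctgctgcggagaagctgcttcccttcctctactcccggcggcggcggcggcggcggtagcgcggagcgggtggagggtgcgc
Rab15: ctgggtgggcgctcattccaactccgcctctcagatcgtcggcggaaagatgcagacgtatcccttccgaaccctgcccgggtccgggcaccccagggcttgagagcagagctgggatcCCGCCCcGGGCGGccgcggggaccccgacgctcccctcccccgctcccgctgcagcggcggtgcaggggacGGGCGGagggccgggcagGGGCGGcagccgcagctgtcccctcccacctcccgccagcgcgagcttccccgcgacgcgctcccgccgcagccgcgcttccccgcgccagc
The Rab33b window is chr3:51483716-51484015 on the plus strand, and the Rab12 window is chr17:66519621-66519920 on the minus strand. The Rab15 window is chr12:76822475-76822774 on the minus strand, at the most upstream of the 4 starts listed for it in the promoter table. The gene bounds reach 66519750 for Rab12 and 76822759 for Rab15, upstream of the starts used for these windows. All 3 windows were rich in G and C, at 70.0%, 70.7% and 76.3%, beside a median of 52.7% over all promoters of the promoter table. The Rab33b window held 2 GC boxes, the Rab15 window 4, and the Rab12 window 1 GC box and 1 short form. None of the 3 held the full cyclic AMP element, a CCAAT box or the E-box letters, which says only that these letters are not in these windows.

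Promoters were found for 48 of the 59 Rab genes, 60 in all, among 32851 promoters of the same length. The GC box was in 41 of the 60 (68.3%), beside 35.7% of all promoters. The short form was in 26 (43.3%), beside 20.8%, and the full cyclic AMP element in 2 (3.33%), beside 1.79%. CCAAT was in 26 (43.3%), beside 37.4%, and the E-box in 6 (10.0%), beside 7.15%. These counts describe letters, not bound sites, and were not matched for base composition.

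Rab33b had the order of the lines by Aqp2 exactly. Its signals in that order were 1160, 1531, 1623, 1816, 2050 and 2070, with clones 9 and 11 close together. The slope was 0.16 (SE 0.03, adjusted p = 0.0394, limma). Pearson's r was 0.990 (exact permutation p = 0.00139, adjusted over all probe sets 0.180). Spearman's rho was 1.0 (exact permutation p = 0.00278, adjusted 0.239). Both were at the smallest p that 720 pairings of 6 lines allow. An order equal to that of Aqp2 or its reverse was seen for 1 of 45 Rab genes (2.22%), beside 1.40% of all genes. Without clone 2 and clone 11, the lines farthest from the median of Aqp2, r over 4 lines was 0.960. Over the 5 expressing lines alone the slope was 0.17 (SE 0.06, adjusted p = 0.325).

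Rab12 followed Aqp2 with clones 3 and 10 exchanged. The slope was 0.21 (SE 0.04, adjusted p = 0.0401, limma), r 0.952 (exact permutation p = 0.00694, adjusted 0.224) and rho 0.943 (exact permutation p = 0.0167, adjusted 0.311). Without clones 2 and 11 r was 0.756, and over the expressing lines the slope was 0.21 (SE 0.08, adjusted p = 0.372). Its other probe set had a slope of 0.37 (SE 0.12, adjusted p = 0.134). That probe set lay under the offset in clone 2 and passed the filter through the expressing lines alone, so its slope is not read as support. Chromosome 17 as a whole had a median slope of 0.09, and after chromosome centring Rab12 had a slope of 0.10 (adjusted p = 0.192).

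Rab15 ran the other way, highest in clone 2 and lowest in clones 9 and 11. The slope was -0.22 (SE 0.04, adjusted p = 0.0443, limma), r -0.918 (exact permutation p = 0.0111, adjusted 0.232) and rho -0.886 (exact permutation p = 0.0333, adjusted 0.364). Without clones 2 and 11 r was -0.740, and over the expressing lines the slope was -0.26 (SE 0.09, adjusted p = 0.328).

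**Figure D4:**
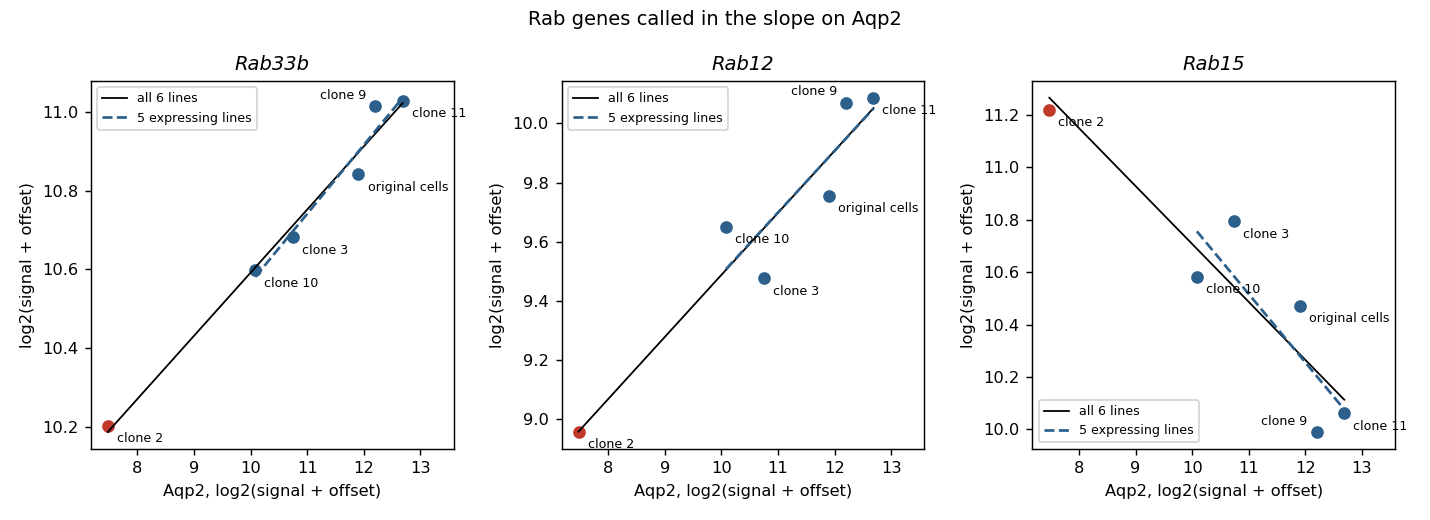
Log2(signal + offset) of Rab33b, Rab12 and Rab15 (vertical axes) against that of Aqp2 (horizontal axes), 1 point per line with clone 2 in red; solid lines are fitted over all 6 lines and dashed lines over the 5 expressing ones. The solid slopes are 0.16, 0.21 and -0.22, and the dashed ones 0.17, 0.21 and -0.26.

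The 3 calls lay close to the threshold and depended on single lines. They held with clone 10 left out, and were lost with any other line left out. For Rab12, Rab33b and Rab15, in that order, limma's adjusted p was then 0.372, 0.325 and 0.328 (clone 2 left out), 0.0628, 0.0746 and 0.0580 (clone 3 left out), 0.0635, 0.0597 and 0.0593 (clone 9 left out), 0.116, 0.114 and 0.118 (clone 11 left out), or 0.0755, 0.0870 and 0.0735 (original cells left out). The calls were also lost with no filter on signal (0.0859, 0.0687 and 0.0865), with a prior variance free of the mean-variance trend (0.0872, 0.0931 and 0.100) and after chromosome centring (0.192, 0.102 and 0.0692). Rab15 was lost under quantile normalization (0.0514) and Rab33b under median centring (0.0597).

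Over the 5 expressing lines no Rab gene was called by the adjusted test, beside 0.0194% of all genes, and 8 of 45 had an unadjusted p under 0.05 in limma (17.8%), beside 12.8%. Rab8b had the smallest of these p-values, with a slope of 0.24 (SE 0.06, adjusted p = 0.255). It gave 1218 in clone 3 and 1118 in clone 10, against 1680 in clone 9, 1658 in clone 11 and 1517 in the original cells, while clone 2 stood at 1266 beside the lower lines. Rab8b was chosen for description after its values were seen. Rab27a had a slope of 0.26 (adjusted p = 0.331) over these lines and 0.13 (adjusted p = 0.209) over all 6. The other 6 were Rab12, Rab14 and Rab33b above 0 and Rab1a, Rab4b and Rab15 below it.

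Rab4b, Rab1a and Rab14 came next to the called genes over all 6 lines. Rab4b had a slope of -0.14 (adjusted p = 0.102, limma), Rab1a of -0.10 (adjusted p = 0.0766) and Rab14 of 0.10 (adjusted p = 0.0882). Rab32 had a slope of -0.17 (adjusted p = 0.132), but among the expressing lines 4 lay between 384 and 406, and the original cells were low at 293. Rab4a had a slope of 0.15 over all lines (adjusted p = 0.167) and 0.03 over the expressing ones. Paralogs had opposite signs of the slope in 7 of the 10 pairs, beside 49.9% of all 990 pairs of tested Rab genes. By the chosen probe sets these were the same 7 pairs as in the paralog comparison above. Both counts rest on the same arrays, so this one is not a separate observation.

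Among the expressing lines the Rab genes varied about as much as other genes, with a median range of 0.45 on the log2 scale, beside 0.46 for all genes tested. Rab27b had the widest range, 1.42, set by clone 9. Rab17 (0.97), Rab36 (0.96), Rab19 (0.84) and Rab15 (0.80) followed. By their chosen probe sets Rab3a, Rab10 and Rab25 were the steadiest, with ranges of 0.10, 0.11 and 0.12. Over the 45 genes clone 2 was the highest line for 11 and the lowest for 15. Clone 9 was highest for 9 and lowest for 7, clone 10 for 8 and 8, clone 11 for 8 and 5, clone 3 for 6 and 4, and the original cells for 3 and 6. Clone 2 was thus at an end of the range for 57.8% of the Rab genes, beside 55.9% of all genes, and clone 9 for 35.6%, beside 42.0%.

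**Figure D5:**
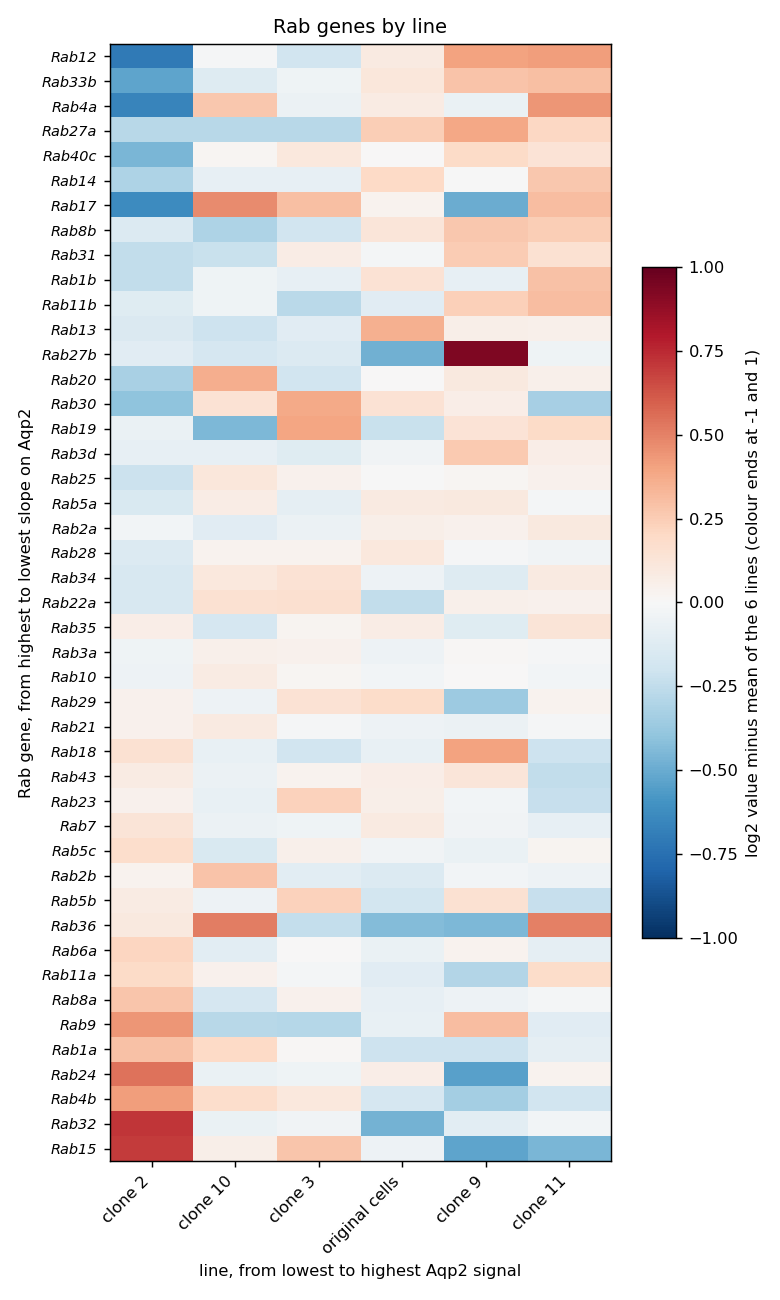
Log2 value of the 45 Rab genes (vertical axis, from highest to lowest slope on Aqp2) in the 6 lines (horizontal axis, from lowest to highest Aqp2), with each gene's mean over the lines subtracted; red is above the mean and blue below. Rab12 and Rab33b at the top and Rab15 at the bottom change across the lines, and the cell of clone 9 stands out for Rab27b.

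Of 124 listed genes that load, unload, anchor or bind Rab proteins, 117 were measured and 107 tested. None was called in clone 2 by limma's adjusted test, beside 3.14% of all genes, and 24 had an unadjusted p under 0.05 (22.4%, beside 22.3% of all genes), 7 higher and 17 lower. Their median log2 difference was 0.06, beside 0.01 for all genes. The median was 0.02 for 6 prenylation and GDI genes, 0.07 for 29 exchange factors, 0.01 for 33 GTPase-activating proteins and 0.07 for 39 effectors, motors and tethers. Chm and Chml, which encode the paralogous escort proteins that present Rab proteins for prenylation, stood on opposite sides. Chm gave 1109 in clone 2 and 715 ± 23.9 (SD, n = 5) in the others (adjusted p = 0.0731), and Chml gave 624 and 909 ± 99.7 (adjusted p = 0.168). These 2 were chosen for description after their values were seen. Their log2 differences, 0.62 for Chm and -0.52 for Chml, had the signs of the median differences of their chromosomes. These medians were 0.47 for X, which holds Chm, and -0.28 for chromosome 1, which holds Chml. The part the chromosome shifts have in the 2 differences was not tested.

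In the slope on Aqp2, 2 of the 107 were called (1.87%, beside 2.22% of all genes), both rising. That share lies near the background, so the 2 are described as single genes. Rab11fip4, an effector that binds Rab11, gave signals of 871, 1145, 1265, 1352, 1455 and 1584 in the order of the lines by Aqp2. It thus climbed at every step, and the slope was 0.16 (SE 0.03, adjusted p = 0.0477, limma). Myo7a, which encodes the motor myosin VIIa that is linked to Rab27a through an adaptor, gave 25.5, 32.3, 170, 302, 363 and 298 in the same order, so that clones 2 and 10 were low. Its slope was 0.66 (SE 0.12, adjusted p = 0.0335), but both low signals lie under the filter of 85.5, which Myo7a passed through the other lines, so the size of the slope rests on signals the arrays measure poorly. With a line left out, limma's adjusted p for Rab11fip4 and Myo7a was 0.363 and 0.206 (clone 2 left out), 0.0837 and 0.0519 (clone 3 left out), 0.0661 and 0.0577 (clone 9 left out), 0.128 and 0.0922 (clone 11 left out), or 0.0943 and 0.0803 (original cells left out). With clone 10 left out the call of Myo7a held (0.00956) and that of Rab11fip4 did not (0.0511). Both were lost with no filter (0.0847 and 0.0861) and with no mean-variance trend (0.0961 and 0.0833). Rab11fip4 was also lost under quantile normalization (0.0530) and median centring (0.0697). At an unadjusted p under 0.05 there were 26 of the 107 (24.3%, beside 22.1% of all genes), 14 with slopes above 0 and 12 below.

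Other probe sets of the same gene are a further look at each value. Of the 45 tested Rab genes, 28 had another tested probe set. All of them had the sign of the chosen one for 14 genes in clone 2 and for 18 in the slope. The chosen probe set and the median over probe sets differed in sign in clone 2 for 9 genes: Rab2a, Rab2b, Rab3d, Rab5b, Rab8a, Rab21, Rab23, Rab28 and Rab43. Of these, Rab8a had the widest difference by its chosen probe set (0.33), and the other 8 lay between -0.16 and 0.10. Rab12, Rab4a, Rab14 and Rab40c had the same sign throughout.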

How the data were processed

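The authors deposited linear MAS5 signal intensity values, 1 array per line; the submitters' processing notes name MAS5 and Affymetrix Expression Console 1.1. The mean trimmed by 2% at each end, averaged over the 6 arrays, was 500, so the deposited intensity values appear to have been scaled. Mismatch subtraction in MAS5 makes low signals noisy. Precision is limited by having 1 array per line.

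Of 45101 probe sets, 64 controls were left out. Symbols came from the platform annotation, updated through a RefSeq gene table (GRCm38.p6): 34945 probe sets had 1 gene, 932 several and 9160 none, of which 34741 single-gene ones had a symbol in that table. Tests ran on log2(signal + 18.85), an offset set at the 25th percentile of the deposited values, over 22518 probe sets with a mean signal above 85.5, so differences of low signals are understated. A gene low in most lines could pass through a single high line. Tests used limma 3.58.1 in R 4.3.3 (lmFit, eBayes with trend), two-sided, 4 residual degrees of freedom (3 over the 5 expressing lines), Benjamini-Hochberg adjustment over all probe sets and a threshold of 0.05. The slope fit used the log2 Aqp2 value as predictor and left Aqp2 out. Permutation tests of correlations were exact and two-sided, over 720 pairings, and adjusted over all probe sets tested. The fits were tested on simulated data. Tables were made with Python 3.11.15.

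The family, its role groups and the lists were chosen with earlier results of these data known, though the symbol rule uses no test result. Named genes were Aqp2, called Rab genes, the 6 largest log2 differences and 4 largest slopes per direction, the 5 widest ranges among expressing lines, 17 Rab genes known from apical, recycling and AQP2 vesicles, and called machinery genes, up to 8 per direction. Alternatives were other offsets, filters, normalizations and variance settings, other probe sets, chromosome centring (each array set to a common median level of each chromosome's genes) and each line left out.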

Additional observations from a re-analysis of the deposited data

Results flagged for a closer look

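Among the 5 expressing lines, 1 line stood apart from the other 4 for 6 of the 45 Rab genes, by the gap to its nearest neighbour over the whole range (critical value 0.71). Chance flags about 1 in 20 groups. Rab18 in clone 9 had a gap of 0.816, with a signal of 3230 beside 2113 to 2319. Rab27b in clone 9 had 0.79, at 729 beside 261 to 359. Rab24 in clone 9 had 0.749 and lay low, at 1081 beside 1510 to 1654. Rab32 in the original cells had 0.807 and also lay low, at 293 beside 384 to 406. Rab7 in the original cells had 0.74, at 6251 beside 5558 to 5738. Rab2b in clone 10 had 0.768, at 419 beside 308 to 334. Clone 9 thus held 3 of the 6, the original cells 2 and clone 10 1. The share of such genes among all genes tested was not computed. Neither the 6 of 45 nor the 3 in clone 9 is therefore read as particular to the Rab family.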

How the results depend on the processing

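The count of Rab genes called in clone 2 went from 0 to 1 when any probe set of a gene was used (Rab12) and to 1 with chromosome centring (Rab32). The count called in the slope on Aqp2 went from 3 to 0 with no filter, to 0 with no mean-variance trend and to 0 with chromosome centring, and ran from 0 to 3 over fits that left out 1 line each. Of the 45 Rab genes, log2 differences of clone 2 that changed sign under median centring were 0.027 (Rab10), 0.014 (Rab19), 0.055 (Rab2a) and 0.036 (Rab3a). After chromosome centring they were 0.26 (Rab11b), 0.013 (Rab13), -0.014 (Rab2b), 0.12 (Rab31), -0.073 (Rab35), 0.024 (Rab3a), -0.014 (Rab43), 0.23 (Rab5a) and -0.029 (Rab9). As the median over probe sets they were -0.044 (Rab21), -0.021 (Rab23), 0.046 (Rab28), 0.16 (Rab2a), -0.14 (Rab2b), 0.12 (Rab3d), -0.079 (Rab43), -0.17 (Rab5b) and -0.0041 (Rab8a). With 1 line left out, Rab19 ran from -0.19 to 0.018, Rab23 from -0.0054 to 0.11, Rab27b from -0.26 to 0.098 and Rab29 from -0.036 to 0.10. Over all probe sets, 560 were called in clone 2, with 210 at no filter, 219 without the trend and 156 (original cells left out) to 942 (clone 9 left out) over the fits with a line left out. In the slope 397 were called, with 51 at no filter, 1 without the trend, 190 after chromosome centring and 0 (clone 11 left out) to 655 (clone 10 left out). The cause was not tested. Over the alternatives run, 616 differences of the 45 genes kept direction and side of the threshold, 26 changed sign and 2 passed it. No paired analysis was possible because each line had 1 array and clone 2 is alone in its group. With 6 arrays, small differences and low signals were not resolved.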
